A study of Mus musculus with 28 samples.

Results

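A set of 10 genes from insulin signalling, of the FoxO transcription factors that insulin restrains and of glucose production were followed across liver and kidney of mice given nicotinamide mononucleotide (NMN) or water. They were Insr, Irs1, Irs2, Akt2, Foxo1, Foxo3, Igfbp1, G6pc, Ppargc1a and Slc2a4, chosen as pathway members and FoxO targets with earlier results of these data known, and they are 10 of the 54446 genes listed in each library. All 10 were found in every file. The animals were male mice aged 8 weeks, of strain C57BL/6 in the labels and C57BL6J in the study's methods. They were gavaged for 7 days with NMN, a precursor of the cofactor NAD+, dissolved in water, or with water alone. The lower schedule was 1340 mg/kg/d, given as 1 gavage per day, with 4 NMN and 4 water libraries for each organ, and the higher was 2680 mg/kg/d, given as 2 gavages per day, with 3 and 3. Each schedule had its own water-gavaged controls, and dose and number of gavages cannot be told apart. Polyadenylated RNA was sequenced in 28 libraries of 12688324 to 33872983 counts. The study calls the libraries of a group biological replicates, but the labels tie no library to a mouse, so the p-values measure the spread between these libraries.

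Insulin binds the receptor encoded by Insr, which phosphorylates the adaptors Irs1 and Irs2. These recruit PI3 kinase and so activate Akt, of which Akt2 is a main form in liver. Akt phosphorylates Foxo1 and Foxo3 and keeps them out of the nucleus, so FoxO targets are expressed when insulin is low. In liver these targets include Igfbp1, a secreted binder of insulin-like growth factors, G6pc, the catalytic subunit of glucose-6-phosphatase, which releases free glucose, and Irs2 itself. Ppargc1a encodes PGC-1α, a coactivator of gluconeogenic and mitochondrial genes, and Slc2a4 encodes GLUT4, the insulin-responsive glucose transporter of muscle and fat. Liver and the proximal tubule of the kidney are the main organs that make glucose.

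Promoters are shown for the members in which a known short motif lay upstream of the transcription start. The motif CAAAACA, read on both strands and so also as TGTTTTG, is the core of the insulin response sequence. The motif GTAAACA, searched on both strands as well, is the core bound by forkhead factors. RefSeq windows on GRCm38.p6, from 250 bases before to 50 after each start, were in the table for 8 of the 10 members, Insr and Slc2a4 having no entry. CAAAACA was found in 4 of the 8, Igfbp1, G6pc, Irs1 and Irs2, and GTAAACA in none. Counted per gene in the same way, 7.2% of the 27025 mouse genes in the table held CAAAACA and 4.05% held GTAAACA. The stretches below are written 5′ to 3′ along the strand of the gene, with the match in capitals: Igfbp1 at chr11:7197643-7197722 (plus strand), G6pc at chr11:101367506-101367585 (plus strand), Irs1 at chr1:82291507-82291586 (minus strand) and Irs2 at chr8:11008930-11009009 (minus strand).
Igfbp1: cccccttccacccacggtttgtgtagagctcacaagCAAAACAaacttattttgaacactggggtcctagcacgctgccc
G6pc: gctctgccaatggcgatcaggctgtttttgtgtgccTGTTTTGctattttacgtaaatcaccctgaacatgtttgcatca
Irs1: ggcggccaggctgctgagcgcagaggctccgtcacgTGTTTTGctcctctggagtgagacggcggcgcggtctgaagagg
Irs2: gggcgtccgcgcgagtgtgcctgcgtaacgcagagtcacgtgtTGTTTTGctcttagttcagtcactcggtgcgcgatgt
The match in Igfbp1 began 108 bases before the start and read CAAAACA, whereas those in G6pc (-174), Irs2 (-37) and Irs1 (-111, with another at -32) read TGTTTTG. A match describes the letters and is not evidence of binding.

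Levels are given as CPM, counts per 1000000 after scaling all 28 libraries together. Liver libraries held 102389 CPM of Alb (mean of the 1340 mg/kg/d water group), the albumin gene of hepatocytes, and kidney libraries of the same schedule held 15526 CPM of Kap, a gene of the male proximal tubule. Each organ held traces of the other. Kidney libraries held 60.8 CPM of Alb in that schedule and 8.23 CPM in the 2680 mg/kg/d water group, and liver libraries 35.9 and 3.75 CPM of Kap. If Igfbp1 had entered kidney libraries in the same share as Alb, it would have come to 0.0473 and 0.00427 CPM there, against 4.05 and 11.3 CPM measured. Its source in kidney libraries was not tested. Ckm, which defines skeletal muscle, a tissue rich in Slc2a4, was at or near 0 CPM in both organs, with its highest value, 2.81 CPM, in liver water replicate 2 at 1340 mg/kg/d.

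Several libraries stood apart in genes of the circadian clock, and they are given before the results because the members were read in the same libraries. Arntl, a core activator of the clock, stood at 28.6 CPM in liver water replicate 1 of the 1340 mg/kg/d schedule and at no more than 5.36 CPM in the other 3. Dbp, an output gene that peaks in the opposite phase, was 0.851 CPM in that replicate and 128 to 185 CPM in the other 3. Water replicate 1 was also the lowest in Dbp in the other groups, at 0.607 CPM against 91.0 and 197 in liver at 2680 mg/kg/d, 4.96 against 40.6 to 58.7 in kidney at 1340 and 6.43 against 80.5 and 87.3 in kidney at 2680. In NMN livers at 1340 mg/kg/d, 3 of 4 replicates were low in Dbp (8.32, 5.58 and 25.1 CPM) and replicate 4 was not (162 CPM). Kidneys of that NMN group showed no such split, at 43.9 to 78.3 CPM. The same liver NMN replicate 4 also stood apart in its reads, with 29.3% of its file in rows naming no gene, against 19.6 to 20.6% in the other 3. These genes were singled out after their values were seen, and results without replicate 1 of every group, or with the ratio of Arntl to Dbp as a covariate, stand beside the comparisons below.

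In water-gavaged mice the levels of the members were ranked in each organ. Per length of exon, G6pc was the most abundant member in both, at 211 ± 113 CPM per kb in liver and 131 ± 45.6 in kidney (mean ± SD, 7 libraries each). In liver it was followed by Igfbp1 (55.2 ± 48.2), Akt2 (17.8 ± 1.06), Insr (9.18 ± 2.34), Foxo3 (7.78 ± 1.30), Foxo1 (5.44 ± 0.95), Irs2 (3.55 ± 2.01), Ppargc1a (1.23 ± 0.567), Irs1 (0.784 ± 0.233) and Slc2a4 (0.197 ± 0.179). Akt2 and Insr were the only neighbours in this order whose ranges did not overlap. In kidney G6pc was followed by Ppargc1a (8.86 ± 1.16), Akt2 (7.99 ± 0.710), Slc2a4 (7.37 ± 0.833), Foxo3 (6.91 ± 1.17), Insr (5.24 ± 0.672), Igfbp1 (4.70 ± 3.53), Foxo1 (4.49 ± 0.742), Irs2 (3.29 ± 1.24) and Irs1 (0.618 ± 0.109). From Ppargc1a to Irs2 each kidney level overlapped the next in range, and Irs1 stood below all of them. Irs1 shares 2822 of its 9144 bases of exon with Gm9747 on the other strand, where reads may be left uncounted. Over the longest transcript instead of all exons, Akt2 led Ppargc1a in kidney, at 13.2 and 11.7 CPM per kb in the 2 schedules. Irs2 was therefore the more abundant adaptor in both organs, and Ppargc1a and Slc2a4 held a place in the kidney order that they did not hold in liver.

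**Figure D1:**
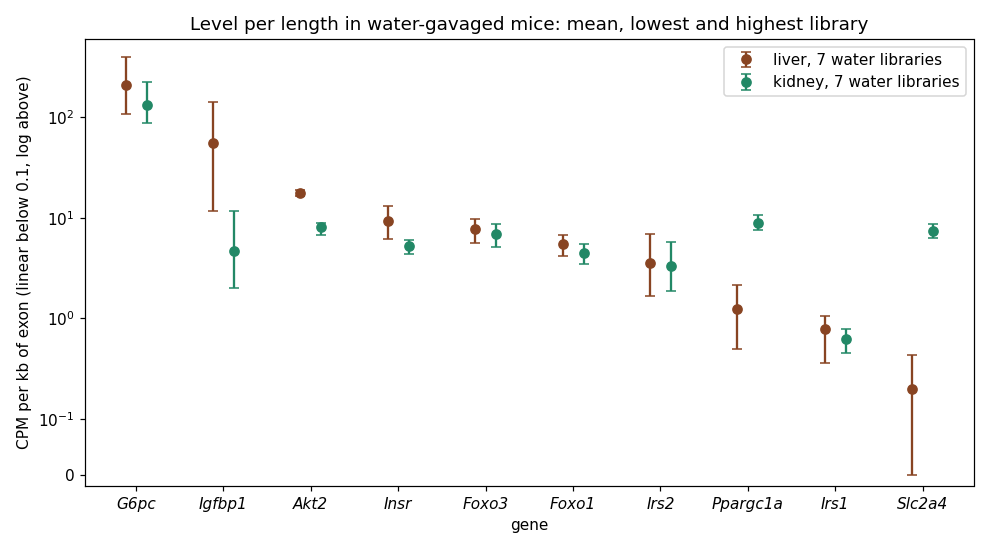
Level per length (CPM per kb of exon, linear below 0.1 and logarithmic above) of the 10 genes in the 7 water-gavaged liver libraries and the 7 water-gavaged kidney libraries. Points are means and bars run from the lowest to the highest library; Slc2a4 and Ppargc1a sit higher in kidney and Akt2 higher in liver, whereas the ranges of Irs1, Irs2, Foxo1, Foxo3 and G6pc overlap between the organs and those of Igfbp1 just touch (11.7 CPM per kb or more in liver, up to 11.8 in kidney).

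Tested within each schedule with edgeR, 5 of 10 members differed between kidney and liver of water mice at 1340 mg/kg/d (adjusted p under 0.05, against 66.9% of the 14599 genes tested) and 6 of 10 at 2680 mg/kg/d (against 70.5% of 14844). The share of members was thus no larger than that of genes at large. Slc2a4 is among them, but it passed the filter on low counts only through kidney, so it had to differ and its levels are given as a description. It held 0, 3, 8 and 1 counts in the water livers and 471 to 559 in the water kidneys at 1340, and 9 to 20 against 570 to 690 at 2680. Ppargc1a was higher in kidney by 2.98 ± 0.29 on the log2 scale (SE, adjusted p = 1.18e-06) and 2.76 ± 0.25 (adjusted p = 2.60e-06). These are differences of 7.89-fold and 6.78-fold for the coactivator, without overlap between the organs.

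Igfbp1 was lower in kidney, with a log2 fold change of -4.26 ± 0.89 (adjusted p = 0.00428) at 1340 and -2.96 ± 0.67 (adjusted p = 0.0106) at 2680. Without liver water replicate 1 of the same schedule these were -3.07 and -2.32. In the latter schedule blocking on the replicate number took the call away (adjusted p = 0.0720), as did leaving out kidney water replicate 3 (0.0554). Akt2 was lower by 1.09 ± 0.11 and 1.17 ± 0.12 on the log2 scale, and Insr by 0.82 ± 0.19 and 0.72 ± 0.15, with adjusted p of 0.00221 or less in each case. Irs1 was lower in kidney at 2680 mg/kg/d (-0.66 ± 0.23, adjusted p = 0.0218), a call that was lost when the water libraries of both schedules were fitted together (adjusted p = 0.105) and without kidney water replicate 2 (0.0890) or 3 (0.0636). Irs2, Foxo1, Foxo3 and G6pc passed in neither schedule. Foxo1, with log2 fold changes of -0.25 and -0.26, passed without liver water replicate 1 (adjusted p = 0.0391 and 0.0383) and in the fit of both schedules (0.00508), and G6pc at 2680 mg/kg/d passed without liver water replicate 2 (0.00173) or 3 (0.0310). The counts of 5 and 6 members were the same without replicate 1 of every group. In bulk tissue, fewer cells that use a gene and less RNA per cell cannot be told apart.

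Genes that act beside the members are given for the same groups. Igf1, the insulin-like growth factor that the liver secretes, was 923 ± 35.4 CPM in liver and 9.63 ± 1.43 CPM in kidney at 1340 mg/kg/d (SD, n = 4 each). Srebf1, the lipogenic transcription factor that insulin induces, was 468 ± 67.2 and 47.0 ± 16.8 CPM. It shares exon with Rai1 on the other strand, and reads lying wholly in that exon may be left uncounted. Pck1, the enzyme that commits oxaloacetate to glucose synthesis, was 2836 ± 365 and 2807 ± 620 CPM, with a log2 fold change of 0.01 ± 0.16 (adjusted p = 0.966) in edgeR. At 2680 mg/kg/d it was 357, 679 and 1154 CPM in the water livers and 1634, 1429 and 1179 CPM in the water kidneys, without overlap and without passing (0.97 ± 0.43, adjusted p = 0.0835).

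**Figure D2:**
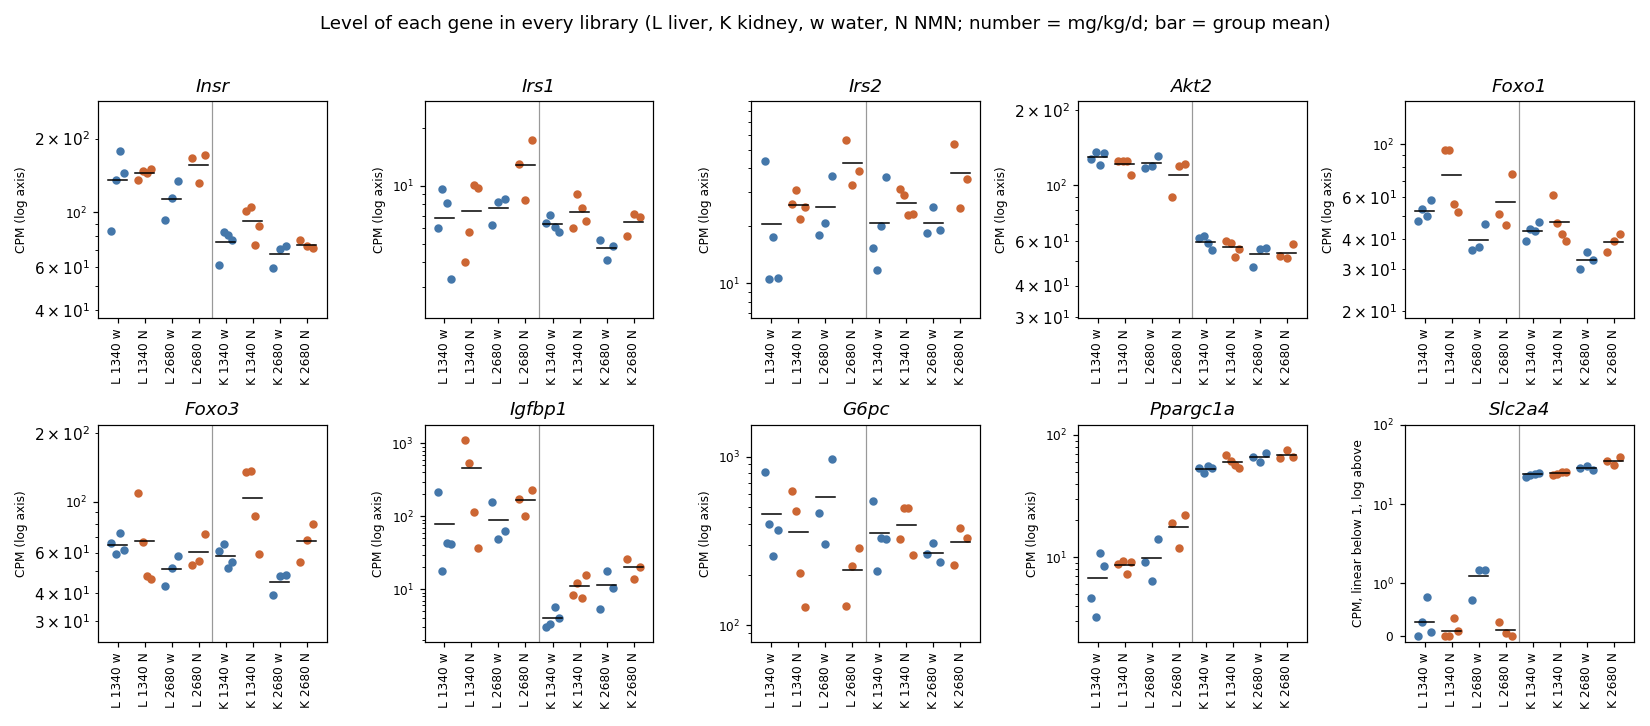
CPM of each of the 10 genes in all 28 libraries (log axis, except Slc2a4, which is linear below 1), with water libraries in blue, NMN libraries in orange, liver left and kidney right of the grey line, and black bars for group means. Igfbp1 spans 17.9 to 1132 CPM in liver, its kidney NMN libraries at 1340 mg/kg/d (7.60 to 15.8 CPM) lie above the water libraries (3.06 to 5.77 CPM), and G6pc in liver at 2680 mg/kg/d lies lower with NMN.

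In liver at 1340 mg/kg/d, none of the 9 members tested passed (against 0.0161% of 12449 genes, 2 genes), and 1 of 9 had an unadjusted p under 0.05, against 6.86% of all genes. Slc2a4 was too low for the filter. The exception, Foxo1, was 47.9, 53.7, 50.3 and 58.5 CPM in the water replicates and 94.3, 95.0, 56 and 52.3 CPM with NMN, so 2 NMN livers stood above every control and 2 among them (log2 fold change 0.51 ± 0.19, adjusted p = 0.6). Foxo1 shares exon with the antisense gene Gm20402, and the counting ignored strand, so reads lying wholly in that exon may be left uncounted. Foxo3 was 109, 66.6, 47.4 and 45.9 CPM with NMN against 59.2 to 73.4 CPM with water, which put 1 replicate above and 2 below the controls.

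Igfbp1 spread widely. It was 215, 17.9, 43.7 and 41.9 CPM in the water livers and 1132, 542, 113 and 36.5 CPM in the NMN livers. NMN replicates 1 and 2 lay above every control, and replicate 4 below 3 of the 4. The fitted log2 fold change of 2.50 ± 1.29 did not pass (adjusted p = 0.802), and it was 1.54 with the clock ratio as a covariate and 2.74 without replicate 1 of either group. Its fit rests on single libraries, since leaving out one at a time moved it between 1.53 and 3.71. Without NMN replicate 4, in which many reads fell in no gene, no member passed either, and the log2 fold changes were 2.89 for Igfbp1, 0.63 for Foxo1, 0.19 for Foxo3 and -0.08 for G6pc.

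G6pc was 815, 397, 257 and 367 CPM with water and 627, 478, 205 and 128 CPM with NMN, with 2 NMN livers among the controls and 2 below them. Irs2 was 43.5, 10.5, 17.4 and 10.6 CPM with water and 21.6 to 30.8 CPM with NMN, so that 3 of the 4 controls lay below every NMN liver and replicate 1 above them. Without replicate 1 of either group its log2 fold change was 1.03 (adjusted p = 0.145), against 0.35 ± 0.43 with all libraries. Insr was 83.8 CPM in water replicate 1 and 135 to 178 CPM elsewhere in the group, with 135 to 150 CPM under NMN. Akt2 stayed within 120 to 135 CPM with water and 110 to 125 CPM with NMN.

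**Figure D3:**
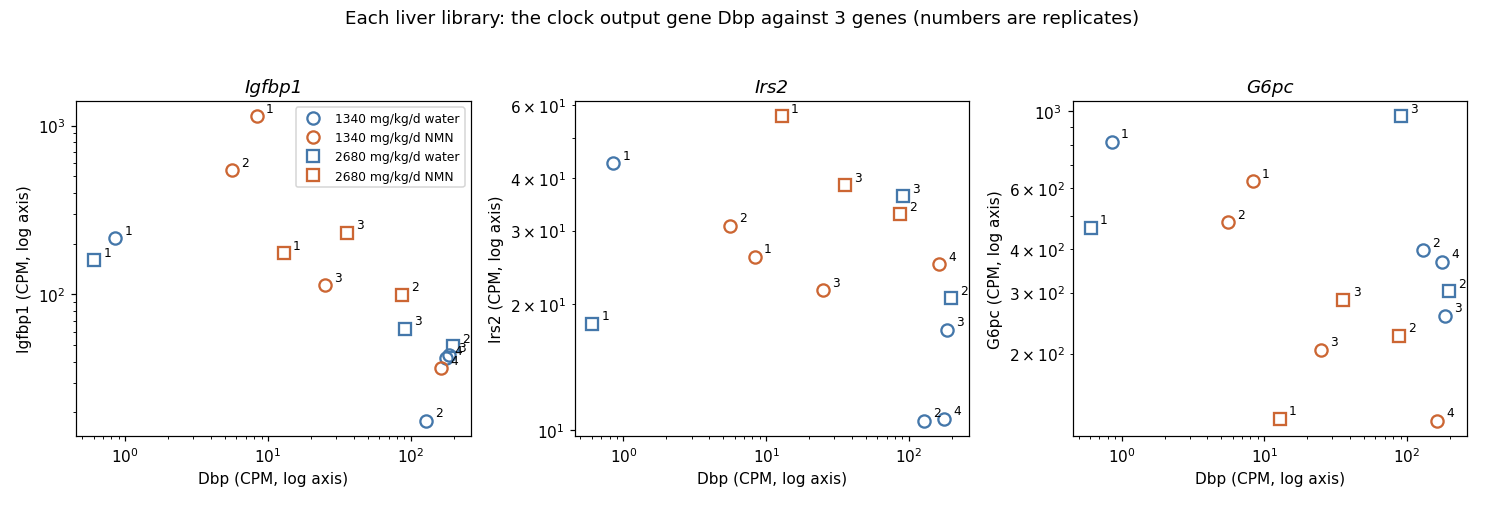
Dbp on the x axis against Igfbp1, Irs2 and G6pc on the y axes (CPM, all axes logarithmic) in the 14 liver libraries, with circles for 1340 and squares for 2680 mg/kg/d, blue for water, orange for NMN and replicate numbers beside the points. In both water groups replicate 1 is lowest in Dbp and highest in Igfbp1 (215 CPM at 1340 and 159 CPM at 2680 mg/kg/d), and at 1340 mg/kg/d the NMN library highest in Dbp (162 CPM) is lowest in Igfbp1 (36.5 CPM).

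The plot of liver libraries sets Igfbp1 beside Dbp. In both water groups the library with the least Dbp had the most Igfbp1, but at 1340 mg/kg/d the library with the least Igfbp1 (17.9 CPM, replicate 2) had less Dbp than replicates 3 and 4. In NMN livers at 2680 mg/kg/d, Dbp was 12.8, 87.2 and 35.8 CPM where Igfbp1 was 176, 99.8 and 232 CPM, so the orders of the 2 genes were not exact opposites there. The part of the clock phase in the Igfbp1 values was tested only through the covariate above.

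Glucocorticoid-responsive genes were read in the same livers. Of 12 listed genes, 11 were higher with NMN in liver, with a median log2 fold change of 0.69 against -0.0027 over all genes, and none passed. Fkbp5, a feedback gene of that receptor singled out after its values were seen, was 42.1 to 101 CPM in the water livers and 142 to 235 CPM in the NMN livers, without overlap, which held for 3.54% of all genes. Of the 13 marker lists, the pancreas sum was lower without overlap (25.8 to 50.6 CPM with water, 10.2 to 25.0 CPM with NMN). Cela1 alone made up that sum, the other 4 pancreas genes being at 0 in all these livers. The adipocyte sum, under 4 CPM in every library, was higher. The part of these in the FoxO and Igfbp1 values was not tested.

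In liver at 2680 mg/kg/d none of 9 members passed (against 7.08% of 12477 genes), and 6 of 9 had an unadjusted p under 0.05, against 24.6% of all genes, and 7 of 9 were higher with NMN. The median log2 fold change of the members was 0.55, against 0.0045 over all genes. Of these 6, the receptor Insr, both adaptors, Foxo1 and Ppargc1a were higher and G6pc was lower.

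Insr was 93.2, 114 and 134 CPM with water and 167, 131 and 172 CPM with NMN (log2 fold change 0.49 ± 0.19, adjusted p = 0.135). Irs1 was 6.22, 8.24 and 8.56 CPM against 12.9, 8.40 and 17.2 CPM (0.77 ± 0.30, adjusted p = 0.142). Part of its reads may be left uncounted, in exon shared with Gm9747 on the other strand. Irs2 was 18.0, 20.7 and 36.2 CPM against 56.3, 32.8 and 38.5 CPM (0.80 ± 0.31, adjusted p = 0.154). For each of the 3, 1 NMN library lay within the range of the controls. Irs1 passed without NMN replicate 2 (adjusted p = 0.0394), and Irs2 without water replicate 3 (0.0457). Foxo1 was 36, 37.1 and 46.6 CPM against 51.2, 46.2 and 75.2 CPM (0.55 ± 0.21, adjusted p = 0.135, and 0.0480 without NMN replicate 2), and Foxo3 was 42.7 to 57.9 CPM against 53.1 to 72.4 CPM.

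Ppargc1a was 9.10, 6.36 and 14.2 CPM with water and 19.2, 11.8 and 22.3 CPM with NMN. Its log2 fold change of 0.87 ± 0.33 had an adjusted p of 0.142, of 0.0351 when blocked on replicate number and of 0.0478 without NMN replicate 2. The study put mice into separate water and NMN groups, so replicate numbers were not shown to pair these libraries. The block is only an alternative fit, for Ppargc1a and for G6pc below. G6pc was 462, 303 and 966 CPM with water and 130, 225 and 286 CPM with NMN, so every NMN liver lay below every control. It was 2.69-fold lower (log2 fold change -1.43 ± 0.51, adjusted p = 0.164), and passed with the replicate block (-1.32, adjusted p = 0.0345). Leaving out single libraries gave -1.74 to -0.80, the smallest without water replicate 3, and none of these passed. Pck1, which acts upstream of it on the same path, went the other way, at 357, 679 and 1154 CPM with water and 1214, 1724 and 1526 CPM with NMN (1.04 ± 0.42, adjusted p = 0.193). The groups of both genes did not overlap, which held for 29.2% of all genes in this comparison.

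Igfbp1 was 159, 49.3 and 62.4 CPM with water and 176, 99.8 and 232 CPM with NMN. Replicate 1 was again the control with the most Igfbp1 and the least Dbp. The log2 fold change of 0.95 ± 0.54 did not pass (adjusted p = 0.341). It was 1.03 ± 0.22 and passed with the clock ratio as a covariate (adjusted p = 0.0272), and 1.56 ± 0.38 without replicate 1 of either group (adjusted p = 0.0736). Slc2a4 stood at 9, 20 and 18 counts in the water livers (0.683, 1.5 and 1.5 CPM) and at 4, 1 and 0 counts in the NMN livers (0.269, 0.0700 and 0 CPM), and it failed the filter on low counts. Kap, at 3.75 CPM in the controls, would stand for 0.00644 CPM of Slc2a4 from kidney if both had entered in the same share, against 1.23 CPM measured. The source of the Slc2a4 counts in liver was not tested.

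Hepatocyte markers also differed in this comparison. The sum of 6 of them was 197917 to 230285 CPM with water and 145641 to 173047 CPM with NMN, without overlap. Of the 12 other marker lists, 4 erythroid genes summed lower without overlap (159 to 188 CPM with water, 56.9 to 105 CPM with NMN). Most of that sum was Alas2, with means of 144 of 171 CPM with water and 42.8 of 74.4 CPM with NMN. The fall was thus that of Alas2 and not of the other genes of the list together. The sum of 5 pancreas genes was lower too (27.4 to 35.0 and 5.58 to 9.31 CPM), but Cela1 alone made it up. The adrenal cortex sum, nearly all Star and under 5 CPM in every library, was higher without overlap. The skeletal muscle sum was 0 CPM in the water livers. With NMN it ran from 0.07 CPM, below the floor of 3 counts, to 0.605 CPM. Of the 12 glucocorticoid-responsive genes, 7 were higher and 5 lower, and none passed. The part of these in the member values was not tested.

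**Figure D4:**
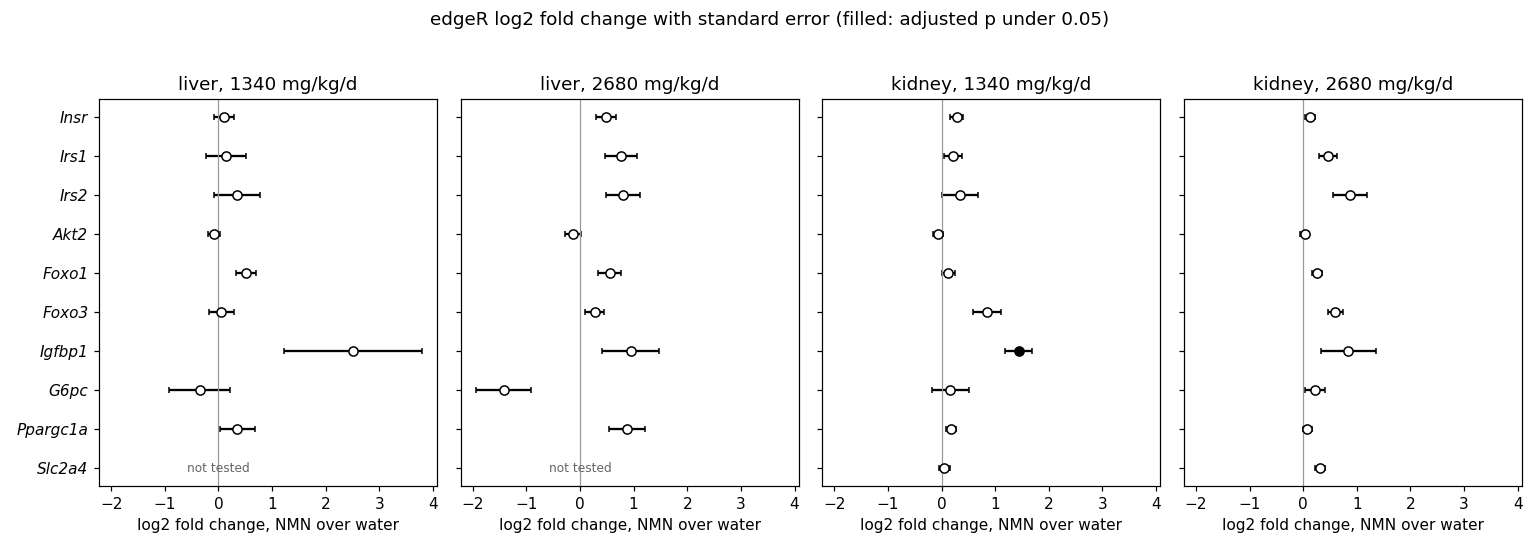
Log2 fold change of NMN over water from edgeR, with bars of 1 standard error, for the 10 genes in liver and kidney at both schedules. The single filled point, with an adjusted p under 0.05, is Igfbp1 in kidney at 1340 mg/kg/d, at 1.44; in liver at 2680 mg/kg/d G6pc lies at -1.43 with 7 of 9 tested genes above 0.

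In kidney at 1340 mg/kg/d, Igfbp1 rose. It was 3.06, 3.33, 5.77 and 4.04 CPM in the water kidneys and 8.34, 12.0, 7.60 and 15.8 CPM in the NMN kidneys, so that all 4 NMN libraries lay above all 4 controls. The increase was 2.71-fold, with a log2 fold change of 1.44 ± 0.26 (adjusted p = 0.0479), and Igfbp1 was the 1 member of 10 to pass, against 0.12% of 14972 genes in either direction and 0.0668% that rose. Groups without overlap were found for 5% of all genes. The call sits at the threshold. It was lost without water replicate 1 (adjusted p = 0.117), 2 (0.157) or 4 (0.142) or NMN replicate 2 (0.187), in a fit of all 14 kidney libraries (0.195), without replicate 1 of both groups (0.0769) and with the clock ratio as a covariate (0.0975). The log2 fold change stayed between 1.20 and 1.67 when single libraries were left out. Alb in the NMN kidneys, at 70.2 CPM, would stand for 0.302 CPM of Igfbp1 from liver if both had entered in the same share, against 11.0 CPM measured. The source of the Igfbp1 counts was not tested.

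Beside it, 3 of the 10 members had an unadjusted p under 0.05, Igfbp1 included, against 8.94% of all genes. Foxo3 was 51.4 to 65.4 CPM in the water kidneys and 136, 136, 87.1 and 58.9 CPM in the NMN kidneys, 3 of which lay above every control. Its log2 fold change of 0.84 ± 0.26 had an adjusted p of 0.398, and of 0.00835 without NMN replicate 4, the lowest. Pdk4, a FoxO target that spares glucose by inhibiting pyruvate dehydrogenase and was also singled out after its values were seen, ran alongside it: 86.6, 66.4, 32.0 and 11.3 CPM with NMN against 11.9 to 20.5 CPM with water. Insr was 60.8 to 83.0 CPM against 101, 105, 73.6 and 87.7 CPM (0.28 ± 0.12, adjusted p = 0.515). Pck1, at 2277 to 3686 CPM with water and 3628 to 4946 CPM with NMN, was higher by 0.67 ± 0.14 on the log2 scale without passing (adjusted p = 0.0852).

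None of the other members passed. G6pc was 211 to 545 CPM with water and 262 to 494 CPM with NMN. Irs2 was 11.8 to 36 and 22.9 to 31.0 CPM, and Foxo1 39.2 to 47.2 and 39.4 to 61.4 CPM. Ppargc1a ran from 49.3 to 56.2 CPM and from 53.7 to 68.8 CPM, and Slc2a4 from 21.8 to 24.8 CPM and from 23.4 to 25.5 CPM. The sum of 6 markers of adipocytes, cells in which Slc2a4 is abundant, ran from 3.25 to 48.9 CPM over the same 8 libraries, and its part in the Slc2a4 values was not tested. Among the glucocorticoid-responsive genes, 11 of 12 were higher with NMN (median log2 fold change 0.97, against 0.0011 over all genes), none passed, and Fkbp5 did not overlap between groups (51.5 to 87.6 CPM against 111 to 175 CPM). In the same libraries the sum of 4 distal nephron genes was 2679 to 3054 CPM with water and 3430 to 3646 CPM with NMN, without overlap, and that of 5 proximal tubule genes was 18857 to 25529 CPM and 13996 to 18980 CPM, with overlap. Of 19 clock genes 14 were higher with NMN (median log2 fold change 0.27), 6 of them without overlap between the groups (5% of all genes did not overlap), and 1, Bhlhe40, a repressor of the clock, rose (0.76 ± 0.13, adjusted p = 0.0393). Beyond the covariate above, the part of these genes and cells in the rise of Igfbp1 was not tested.

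At 2680 mg/kg/d all 10 members were higher in NMN kidneys and none passed (against 0.4% of 15245 genes). In this comparison 50.8% of all genes were higher. The median log2 fold change of the members was 0.29, against 0.0038 over all genes, 5 of 10 had an unadjusted p under 0.05, against 11.1% of all genes, and 4 of 10 did not overlap between groups, against 17.1%. The sum of 5 proximal tubule genes was lower in the same libraries, at 21136 to 22812 CPM with water and 15229 to 19270 CPM with NMN, and all 11 glucocorticoid-responsive genes tested were higher (median 0.56), none passing. The pancreas sum, nearly all of it Cela1 (32.6 to 39.3 and 25.6 to 30.9 CPM), was lower without overlap as well. So was the adrenal cortex sum, nearly all of it Star (3.56 to 4.47 and 2.89 to 3.49 CPM). Their part in the member values was not tested.

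Foxo3 came nearest, at 39.1, 47.2 and 48.0 CPM with water and 54.5, 67.8 and 80.4 CPM with NMN (1.52-fold, log2 fold change 0.60 ± 0.14, adjusted p = 0.132). It passed in DESeq2 (adjusted p = 0.00504), with the replicate block (0.0149), with the clock ratio as a covariate (0.0401), without replicate 1 of both groups (0.01) and without NMN replicate 1 alone (0.00447). Water and NMN kidneys were not shown to pair by number, so the block is only an alternative fit. Foxo1 was 30.0, 35.3 and 32.7 CPM against 35.6, 39.4 and 42.1 CPM (0.26 ± 0.093, adjusted p = 0.310). Both FoxO factors were thus higher in every NMN kidney than in every control, by margins that did not pass.

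Slc2a4 was 28.3, 30.2 and 26.7 CPM with water and 35.0, 31.1 and 38.9 CPM with NMN (0.31 ± 0.097, adjusted p = 0.241). These kidneys also held more adipocyte RNA than those of the lower schedule, and their mitochondrial share of counts was higher too (group means of 20.3 and 20.6%, against 9.48 and 9.71%). The adipocyte sum was 153, 166 and 195 CPM with water and 146, 182 and 271 CPM with NMN. The part of either in the Slc2a4 values was not tested. Irs1 was 5.20, 4.14 and 4.87 CPM against 5.47, 7.15 and 6.86 CPM (0.46 ± 0.17, adjusted p = 0.316), and Irs2 was 18.4, 25.0 and 19.0 CPM against 53.3, 24.9 and 35.2 CPM (0.87 ± 0.31, adjusted p = 0.410). Igfbp1 was 5.45, 17.9 and 10.6 CPM against 26.3, 13.7 and 20.4 CPM, with overlap (0.84 ± 0.51, adjusted p = 0.628), G6pc 237 to 306 CPM against 228 to 379 CPM, and Akt2 47.6 to 56.2 CPM against 51.4 to 58.5 CPM.

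Whether the organs answered NMN differently was tested directly, by the interaction of organ and NMN within a schedule. At 1340 mg/kg/d no member of 10 and none of 15614 genes passed (0%), with 904 genes at an unadjusted p under 0.05 and 26 past the threshold in DESeq2. Foxo3, higher in kidney and level in liver, had an interaction of 0.79 ± 0.37 on the log2 scale (adjusted p = 0.853). At 2680 mg/kg/d, 1 of 10 members passed, against 2.65% of 15811 genes. That member was Slc2a4, which entered this fit only through kidney. With 9 to 20 counts in the liver controls and 0 to 4 in the NMN livers, its fitted value is not a usable test of a difference. G6pc, lower with NMN in liver and 228 to 379 CPM in the NMN kidneys, had an interaction of 1.66 ± 0.56 (adjusted p = 0.137, and 0.0227 in DESeq2), and Ppargc1a one of -0.78 ± 0.36 (adjusted p = 0.248). For Igfbp1 the interactions were -1.09 ± 1.36 and -0.09 ± 0.76, with adjusted p = 1.00 for both. The first moved from -2.29 without liver water replicate 1 to -0.11 without liver NMN replicate 1.

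The schedules were compared in the same way. No member passed in liver (0 of 9, against 0.0746% of 13412 genes) or in kidney (0 of 10, against 0.00625% of 15989). In liver the difference between schedules was -1.55 ± 1.56 for Igfbp1 (adjusted p = 0.850) and -1.06 ± 0.86 for G6pc (adjusted p = 0.802). Single libraries moved both: Igfbp1 was -2.76 without water replicate 1 and -0.58 without NMN replicate 1 of the 1340 mg/kg/d schedule, and G6pc was -1.50 without that water replicate and -0.45 without water replicate 3 at 2680 mg/kg/d. In kidney it was -0.60 ± 0.57 for Igfbp1, the gene called at 1340 mg/kg/d alone (adjusted p = 0.999), so the schedules were not shown to differ in it.

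The 10 lists of pathway genes, 171 genes in all, place the members among their neighbours. In liver at 1340 mg/kg/d no gene of any list passed. The smallest p-values went to Hnf4a, a hepatocyte transcription factor that drives gluconeogenic genes (log2 fold change 0.68 ± 0.13, adjusted p = 0.117), to Sesn2, a stress-induced FoxO target (0.89 ± 0.21, adjusted p = 0.251), and to Srebf1 (-0.81 ± 0.21, adjusted p = 0.336). Of 9 insulin-induced genes 4 were lower at an unadjusted p under 0.05, against 416 of all 12449 genes, Srebf1 and the glycolytic Pklr (-0.90 ± 0.28) among them.

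In liver at 2680 mg/kg/d, genes of 6 lists passed. Over all 12477 genes tested 7.08% passed, 3.05% higher and 4.03% lower. Of 15 FoxO factors and regulators, 3 rose and none fell: Sgk2, a kinase related to Akt (1.22 ± 0.20, adjusted p = 0.00668), Mdm2, a ubiquitin ligase (0.99 ± 0.20, adjusted p = 0.0176), and Ep300, an acetyltransferase (0.90 ± 0.24, adjusted p = 0.0455). The list's median was 0.49, against 0.0045 over all genes. Among 28 FoxO targets, 1 rose, the glucocorticoid-responsive factor Klf15 (0.67 ± 0.16, adjusted p = 0.0346), and 1 fell, Cited2 (-1.04 ± 0.15, adjusted p = 0.00404), which was 43.6 to 46.1 CPM with water and 20 to 22.6 CPM with NMN.

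Of 23 gluconeogenesis genes tested, 3 fell and none rose, against 4.03% and 3.05% of all genes. A fold change below 0 was found for 18 of the 23, G6pc among them, and for 6191 of all 12477 genes, and the list's median was -0.23. Fbp1, which removes a phosphate from fructose-1,6-bisphosphate, was 1381, 1310 and 1423 CPM with water and 743, 848 and 777 CPM with NMN (-0.77 ± 0.12, adjusted p = 0.00618). Gpd1, a glycerol phosphate dehydrogenase, was 523 to 617 CPM with water and 294 to 437 CPM with NMN (-0.72 ± 0.17, adjusted p = 0.0290). Pck1 was 1 of the 5 genes above 0. The hepatocyte marker sum was lower in these libraries (197917 to 230285 CPM with water, 145641 to 173047 CPM with NMN). Its part in the values of this list was not tested.

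Of 9 insulin-induced genes 1 fell, and of 10 genes of the IGF system 1 rose and 1 fell, where 3.05% of all genes rose and 4.03% fell. Pklr, the liver pyruvate kinase, was 246, 306 and 406 CPM with water and 12.2, 46.3 and 46.0 CPM with NMN, the largest fall among the listed genes that passed (-3.19 ± 0.53, adjusted p = 0.0251). Of the insulin-induced genes 7 of 9 had a fold change below 0, as did 6191 of all 12477 genes. Srebf1 was among the 7 (-0.96 ± 0.26, adjusted p = 0.0549). Igfbp2, another binding protein of insulin-like growth factors, rose from 704 to 984 CPM with water to 2111 to 3062 CPM with NMN (1.63 ± 0.17, adjusted p = 0.000645). Igfals, which holds these factors in a circulating complex, fell from 176 to 207 CPM to 54.3 to 84.7 CPM (-1.54 ± 0.18, adjusted p = 0.00123). Igf1 itself was 886 to 989 CPM and 695 to 925 CPM and did not pass (-0.19 ± 0.15, adjusted p = 0.458).

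Among 25 gluconeogenic regulators, 2 rose and 2 fell. Creb1, the factor that answers cyclic AMP, was 10.1 to 16.2 CPM with water and 25.7 to 36 CPM with NMN (1.19 ± 0.23, adjusted p = 0.0161), and Pde4b, which breaks cyclic AMP down, was 30.1 to 50.05 CPM and 6.22 to 15.2 CPM (-2.0 ± 0.35, adjusted p = 0.0133). The other 2 calls were Klf15, given above, and Cebpa, a hepatocyte transcription factor named here after its values were seen (-0.59 ± 0.16, adjusted p = 0.0489). None of 14 receptors and adaptors, 26 PI3 kinase and Akt genes, 15 negative regulators and 5 glucose transporters passed. Over all genes in the comparison 3.05% rose and 4.03% fell.

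**Figure D5:**
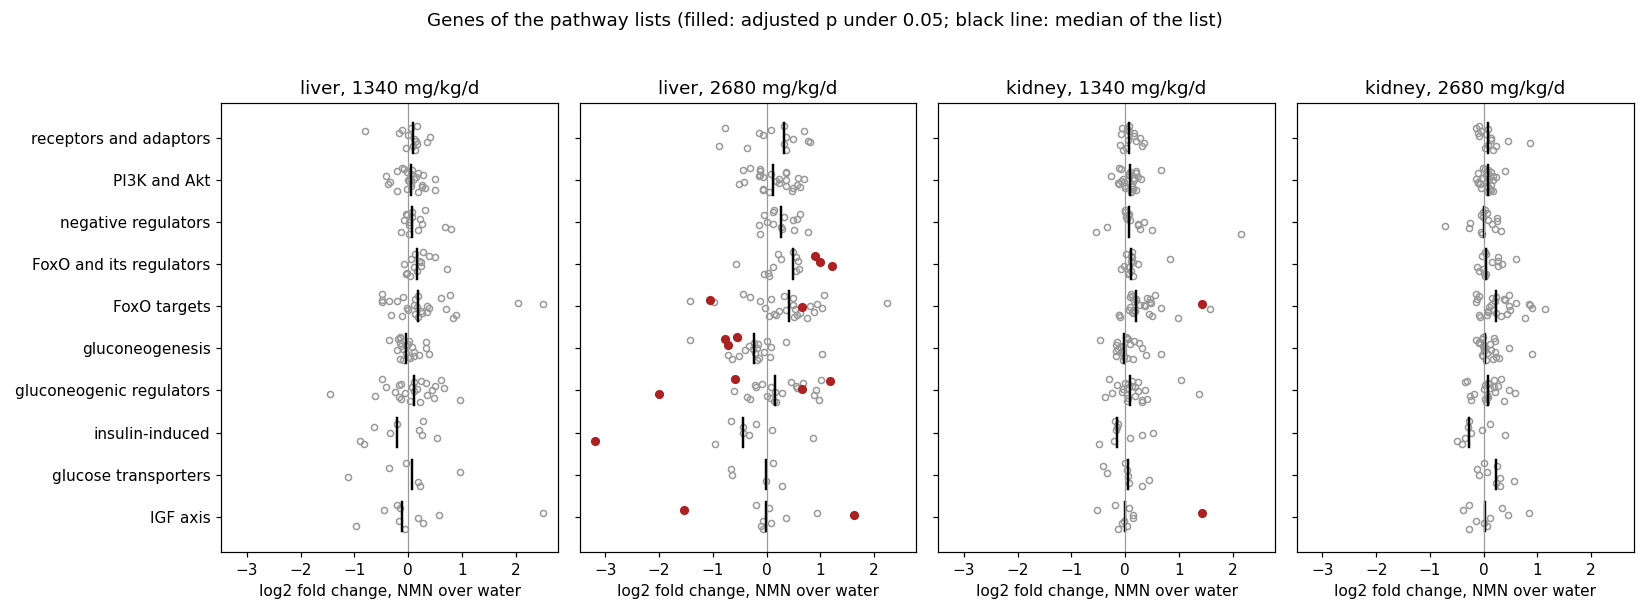
Log2 fold change of NMN over water for each tested gene of 10 pathway lists, in liver and kidney at both schedules, with filled red points for an adjusted p under 0.05 and a black line for the median of each list. Filled points lie in liver at 2680 mg/kg/d, including Pklr at -3.19 and Igfbp2 at 1.63, and otherwise only for Igfbp1 in kidney at 1340 mg/kg/d, which 2 lists hold.

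In kidney no pathway gene other than Igfbp1 passed at either schedule. Of 29 FoxO targets, 26 had a fold change above 0 at 1340 mg/kg/d (median 0.20, against 50.3% of all genes and a median of 0.0011) and 23 at 2680 mg/kg/d (median 0.23, against 50.8% and 0.0038). The smallest p-values among them were for Igfbp1, Pck1 and Cited2 (0.46 ± 0.11, adjusted p = 0.108) at 1340 and for Sesn2 (0.44 ± 0.094, adjusted p = 0.0736), Cited2 (0.38 ± 0.11, adjusted p = 0.213) and Klf15 (0.48 ± 0.14, adjusted p = 0.219) at 2680. Cited2, which fell in liver at 2680 mg/kg/d, overlapped between the groups in liver at 1340 mg/kg/d (19.4 to 48.4 CPM with water, 15.7 to 28.7 CPM with NMN). Kidney gluconeogenesis genes had medians of -0.03 and 0.03, with Gpt (0.47 ± 0.10, adjusted p = 0.0781) nearest to the threshold.

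The genes whose levels followed Igfbp1 and Irs2 most closely were found from deviations of log2 CPM from the group means over the 14 libraries of an organ, among 12158 genes in liver and 13309 in kidney. In liver, Igfbp1 was followed by Trp53inp1 (r = 0.94), Zfp438 (0.913) and Ddit4 (0.908), and Irs2 by Snap23 (0.883), Acadsb (0.876) and Ahcyl2 (0.860). In kidney, Igfbp1 was followed by Fst (0.884), Mthfd1l (0.880) and Sec14l2 (0.879), and Irs2 by Gm43254 (0.864), Fgg (0.852) and Mbp (0.821). No gene was common to the 2 organs. These are the highest of many correlations over libraries that share, in both organs, the spread in clock genes, and they are given as descriptions.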

How the data were processed

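Poly(A)-selected RNA of liver and kidney was sequenced and, per the labels and the study's methods, mapped with STAR and counted per gene with HTSeq in its strict intersection mode, ignoring strand. What the authors deposited are raw counts per gene, not normalized. The build named in the methods could not be matched, so symbols and exon lengths came from GENCODE M21 (53229 of 54446 identifiers matched with the same version, 1180 without it, 37 not at all). Rows naming no gene held 18.6 to 29.3% of each file and were left out. In this mode a read lying wholly in exon shared by overlapping genes, on either strand, is credited to none of them. Such genes therefore lose part of their reads.

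Counts were tested in R 4.3.3 with edgeR 4.0.16 (filterByExpr, TMM, robust quasi-likelihood test) in each organ and schedule, with Benjamini-Hochberg adjustment over all genes tested and a threshold of 0.05. The scripts were tested on simulated data. DESeq2 1.42.0, other filters and scalings, left-out libraries, fits of all libraries of an organ, a replicate block and 2 settings chosen after the data were seen (no replicate 1, and the log2 ratio of Arntl to Dbp as a covariate) were alternatives. CPM values use one TMM scaling over 28 libraries. Totals of 12688324 to 33872983 counts leave a level of 3 counts as the floor.

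The members and gene lists were chosen with earlier results of these data known. Named beyond the members were Pck1, Srebf1 and Igf1, and up to 3 genes per list and NMN comparison with the smallest unadjusted p. Arntl, Dbp, Bhlhe40, Fkbp5, Pdk4 and Cebpa were named after their values were seen, and values of some genes that the rule names are not reported here. Same-numbered liver and kidney water libraries at 1340 mg/kg/d deviated together from their group means (r of 0.10 to 0.29 over genes in each of 4 pairs), so replicate numbers were taken to pair them; the labels do not say that they share a mouse. There the same 5 members (Insr, Akt2, Igfbp1, Ppargc1a and Slc2a4) were called with and without the block. Organ contrasts and organ interactions in Results are from fits without it, unless the block is named, so their standard errors and p-values leave such pairing out.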

Additional observations from a re-analysis of the deposited data

Results flagged for a closer look

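In liver at 1340 mg/kg/d, Igfbp1 in water replicate 1, at 215 CPM, stood far above the other 3 controls (17.9 to 43.7 CPM). The same library was the lowest of its group in Dbp, at 0.851 CPM, and the part of the clock phase was tested only through the ratio of Arntl to Dbp as a covariate, which gave a log2 fold change of 1.54 in place of 2.50. Akt2 in NMN replicate 4 of the same organ and schedule, at 110 CPM, stood below the other 3 NMN livers, which lay at 125 CPM. That library also had 29.3% of its file in rows naming no gene, against 19.6 to 20.6% in the other 3, and the part of that in its values was not tested. They are 2 of 40 groups of 4 libraries examined, which share libraries. Dixon's criterion, used here, is set to mark about 1 in 20 groups by chance.

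For Slc2a4 at 2680 mg/kg/d the fit of organ and NMN gave an interaction of 3.61 on the log2 scale (adjusted p = 0.00933 in edgeR). The gene passed the filter on low counts only through kidney, and the liver libraries held 9, 20 and 18 counts with water and 4, 1 and 0 with NMN. The value is therefore not a usable test of a difference between the organs, and none could be made where 10 counts were required in every library.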

How the results depend on the processing

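Every main direction was recomputed under the alternatives. Groups of 3 or 4 libraries set the precision, and depth limits Slc2a4 in liver, which lies at a few counts. In DESeq2 the genes called numbered 74, 1448, 159 and 236 for NMN in liver at 1340 and 2680 and kidney at 1340 and 2680 mg/kg/d, 26 and 1232 for the organ interactions at 1340 and 2680, and 99 and 10 for the schedule interactions in liver and kidney. It called 1 member (Foxo3) in kidney at 2680 and 2 (G6pc and Slc2a4) in the organ interaction at 2680. With no filter these counts, in the same order, were 44, 1785, 269, 514, 9, 1307, 71 and 106, with 4 members in liver at 2680, 2 in kidney at 2680 and 3 in the organ interaction at 2680. At an adjusted p under 0.01 and a fold change over 2 or under 0.5 they were 0, 135, 2 and 3 for NMN, 60 for the organ interaction at 2680, 6 and 0 for the schedule interactions and 6016 and 6474 for the organ contrasts, with no member called in kidney at 1340 (0) and 3 in the organ contrast at 2680. Fits of all 14 libraries of an organ called 6 genes in liver at 1340, 35 in kidney at 2680 and 0 members in kidney at 1340. Requiring 10 counts in every library left 0 members in kidney at 1340 and in the organ interaction at 2680, and 0 genes in the schedule interaction of kidney.

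With the replicate number as a block, the calls were 16 genes in liver at 1340, 75 and 92 in kidney at 1340 and 2680, 5 and 247 in the organ interactions and 2 in the schedule interaction of kidney, with 2 members in liver at 2680 and 1 in kidney at 2680. Same-numbered libraries correlated in their deviations by 0.041, 0.12, 0.050 and -0.0037 on average between NMN and water (liver at 1340 and 2680, then kidney). Between liver and kidney the mean was 0.16 for water at 2680 (lowest pair 0.098, each library closest to its own number), 0.11 for NMN at 1340 and 0.017 for NMN at 2680. Every pair was above 0.1 only for the water libraries at 1340, so pairing elsewhere was not established, and for water at 2680 it missed that mark narrowly. Without replicate 1 of every group the calls were 15 genes in liver at 1340, 488 in liver at 2680, 196 in kidney at 2680, 12 and 187 in the organ interactions and 2 in the schedule interaction of kidney, with 1 member in liver at 2680 (Slc2a4, which passed the filter only through its water libraries of 20 and 18 counts and so had to differ), 0 in kidney at 1340 and 1 in kidney at 2680 (Foxo3). With the clock ratio as a covariate they were 12 in liver at 1340, 7 and 96 in kidney, with 1 member in liver at 2680 (Igfbp1), 0 in kidney at 1340 and 1 in kidney at 2680 (Foxo3). The cause of these differences was not tested.

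Leaving out 1 library at a time, members called ranged over 0 to 3 in liver at 2680, 0 to 2 and 0 to 1 in kidney, 5 to 6 and 4 to 7 between the organs, and stayed at 0 in liver at 1340. All genes called ranged over 0 to 18, 211 to 1308, 5 to 67 and 3 to 191 for NMN, 9075 to 10275 and 9548 to 10945 between organs, 0 to 9 and 118 to 1347 for the organ interactions, and 7 to 25 and 0 to 1 for the schedule interactions.

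Some log2 fold changes that were not called changed sign. Without replicate 1 of every group these were Insr (-0.030) and Foxo3 (-0.26) in liver at 1340, Foxo1 in kidney at 1340 (-0.057), Akt2 in kidney at 2680 (-0.031), Irs1 (-0.0012) and Irs2 (-0.88) in the organ interaction at 1340, Irs1 in that at 2680 (0.055), Irs2 (-0.71) and Akt2 (0.030) in the liver schedule interaction, and G6pc (-0.15) and Ppargc1a (0.016) in that of kidney. Foxo3 in liver at 1340 was -0.023 with the block and -0.051 with the clock ratio. Between the organs at 1340, Irs1 was 0.053 with 10 counts required and Irs2 -0.11 with both schedules in one fit, and the organ interaction of Irs2 was -0.0020 with no filter, -0.0034 with 10 counts required and -0.10 with the block. Leaving out single libraries gave, in liver at 1340, -0.071 to 0.27 for Insr, -0.087 to 0.36 for Irs1, -0.27 to 0.19 for Foxo3 and -0.75 to 0.081 for G6pc. In kidney it gave -0.018 to 0.20 for Foxo1 and -0.013 to 0.46 for G6pc at 1340, and -0.054 to 0.067 for Akt2 at 2680. Between the organs it gave -0.32 to 0.13 for Irs1, -0.36 to 0.71 for Irs2 and -0.66 to 0.065 for G6pc at 1340, and -0.46 to 0.093 for Irs2 at 2680. For the organ interactions it gave -0.13 to 0.32 for Irs1, -0.66 to 0.40 for Irs2, -0.028 to 0.054 for Akt2 and -0.48 to 0.070 for Ppargc1a at 1340, and -0.27 to 0.35 for Irs2 and -0.76 to 0.41 for Igfbp1 at 2680. For the schedule interactions it gave -0.21 to 0.84 for Irs2, -0.12 to 0.071 for Akt2 and -0.18 to 0.21 for Foxo1 in liver and -0.23 to 0.24 for G6pc in kidney.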
